A study of Bos taurus and Ovis aries and Capra hircus with 27 samples.

Results

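ABC transporters are membrane proteins that use ATP to move bile salts, lipids, sterols, peptides, drugs and ions across membranes. Each carries nucleotide-binding domains, in which a phosphate-holding loop (Walker A), a short signature and a second loop (Walker B) follow each other along the chain, and the ATP lies between the Walker A of one domain and the signature of the other. The liver uses members of the family to form bile, the kidney tubule to secrete anions and drugs, and the heart has members that regulate potassium channels. Some soluble members act at the ribosome and move nothing. The 43 goat gene models described here were chosen by sequence alone: their protein had at least 500 residues, held the letters LSGGQ or LSGGM of the signature, and was not a further copy of another model. They are 43 of the 22131 goat models in the expression table, or 0.792% of the 5431 models whose protein could have met the rule. A protein was at hand for 18216 models (82.3%), and members among the other 3915 models were not analysed here.

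Messenger RNA was measured in heart, liver and kidney of goats, in 3 libraries per tissue and 9 in all, within a series of 27 libraries that also holds cattle and sheep. All goats were indigenous animals of about 3 years, and the labels give no treatment. The study's methods describe adult females. Libraries of the same replicate number deviated together across tissues, so libraries 1, 2 and 3 of each tissue are set side by side. Values are FPKM, a gene's fragments scaled to the length of its transcript and to all fragments mapped in the library. Summed FPKM ran from 574638 to 828807 per library, and the depth behind each value is unknown because no counts were given. The tissue labels were not checked against marker genes, since goat identifiers carry no gene names, and for the same reason members are given by identifier. In these whole-tissue libraries, fewer cells of a type and less RNA per cell cannot be told apart.

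Nucleotide-binding domains of the ABC kind were found in 26 of the 43 members (60.5%). In these 26 proteins a Walker A motif (G, any 2 residues, G, any residue, G, K, then S or T) stood 86 to 117 residues before the signature, with a median of 99, and a Walker B motif followed it. A profile of the nucleotide-binding domain built from these 26 proteins matched each of them, the weakest with E = 4.1e-42. They are called Walker A members below. The other 17 held the signature letters without a Walker A motif ahead of them at that distance, and are called motif-only members. Of these, 15 gave no match to the profile. Both remaining proteins, GOAT_ENSP00000354720 (E = 0.00051) and GOAT_ENSP00000363925 (E = 0.00046), had a Walker A motif near the amino end and the signature near the carboxyl end, at residues 1122 of 1224 and 1086 of 1192. That spacing is known from the chromosome-bound SMC ATPases, which are not transporters. Because the letters alone placed 17 proteins in the group, the main counts are given for both kinds of member.

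Among the Walker A members, 21 carried the signature with Q at its end only and 5 carried the form with M, against 11 and 6 of the motif-only members. Proteins of 2 profile domains with predicted membrane segments numbered 19. They were 1111 to 2598 residues long with 5 to 15 predicted membrane segments. In 18 of these 19 only one of the domains held the signature letters, and goat_GLEAN_10006183 held them in both, at residues 399 and 1008. A further 4 proteins of 535 to 772 residues had 1 domain after the membrane segments, the order of single-domain transporters that work as dimers. The shortest, goat_GLEAN_10013902, is closest to GOAT_ENSBTAP00000008832 (54.0% over 359 positions), which has 2 domains and lies 2446 bases away on the same strand. Whether the shorter model is part of a longer protein was not tested. In GOAT_ENSBTAP00000028342 the domain came before the membrane segments, as in the G subfamily. The same held for GOAT_ENSBTAP00000015667, apart from 1 segment predicted at its amino end. GOAT_ENSBTAP00000009087 had both domains and no membrane segment at all, as in the soluble E and F subfamilies, so the label of transporter is not borne out for it. Of the motif-only members, 8 had no predicted membrane segment, 5 had 1 segment, and the highest number was 9. The shortest members had 535 and 544 residues, and the longest proteins with the signature that fell under the length rule had 416. None of the 9 shorter proteins matched the profile.

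**Figure D1:**
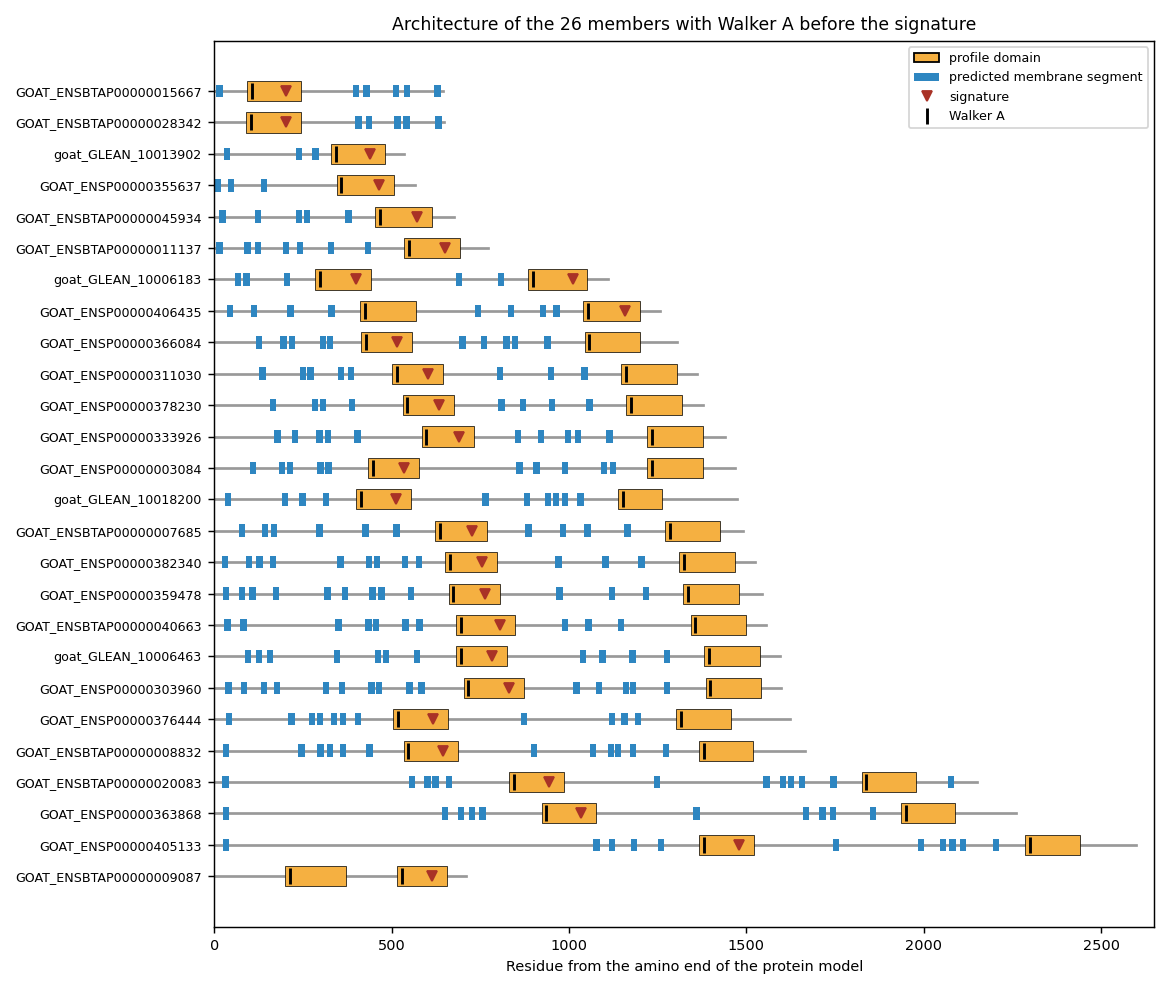
Protein models of the 26 Walker A members drawn to scale, with residues from the amino end on the x axis and 1 protein per row. Boxes mark profile domains, blue bars predicted membrane segments, triangles the signature letters and black ticks Walker A. There are 19 proteins with 2 domains and membrane segments, in GOAT_ENSBTAP00000028342 and GOAT_ENSBTAP00000015667 the single domain lies ahead of the main block of membrane segments, and GOAT_ENSBTAP00000009087 has no membrane segment.

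The members were a small part of the transcriptome in every tissue. Their FPKM summed to 152, 198 and 195 in the heart libraries, to 356, 404 and 425 in liver and to 444, 469 and 550 in kidney. As deposited, these sums did not overlap between heart and the other tissues or between liver and kidney. Median ratio scaling, described below, divides the liver libraries by 0.648 to 0.904 and the kidney libraries by 1.29 to 1.51. Divided in that way, every liver sum lies above every kidney sum, so their order is tied to the deposited scale. As shares of all FPKM, liver (0.0619%, 0.0696% and 0.0686%) and kidney (0.0685%, 0.074% and 0.0931%) did overlap, and heart (0.0186%, 0.0245% and 0.0235%) lay below both. The mean share was 0.0222% ± 0.00318 (SD, n = 3) in heart, 0.0667% ± 0.00418 in liver and 0.0786% ± 0.0129 in kidney. The Walker A members alone summed to 88.7, 116 and 117 in heart, to 280, 301 and 305 in liver and to 175, 247 and 334 in kidney, so that liver and kidney overlapped for them as deposited. The motif-only members summed to 63, 82.7 and 77.7 in heart, to 75.9, 104 and 120 in liver and to 270, 222 and 216 in kidney. By mean level, 26 members exceeded 0.5 FPKM in heart, 25 in liver and 29 in kidney, of which 14, 15 and 14 were Walker A members.

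Few proteins carried these sums. The 5 highest Walker A members held 77.7% of the Walker A sum in heart, 70.7% in liver and 83.1% in kidney. The soluble protein GOAT_ENSBTAP00000009087 led in heart with 27.3% of that sum. By mean, GOAT_ENSP00000359478 led in liver with 19.7%, and GOAT_ENSBTAP00000045934 led in kidney with 49.1%. The leads in heart and kidney held in every library. In liver they did not: goat_GLEAN_10006183 was highest in liver 1 (65.4 FPKM) and GOAT_ENSBTAP00000045934 in liver 3 (68.5).

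**Figure D2:**
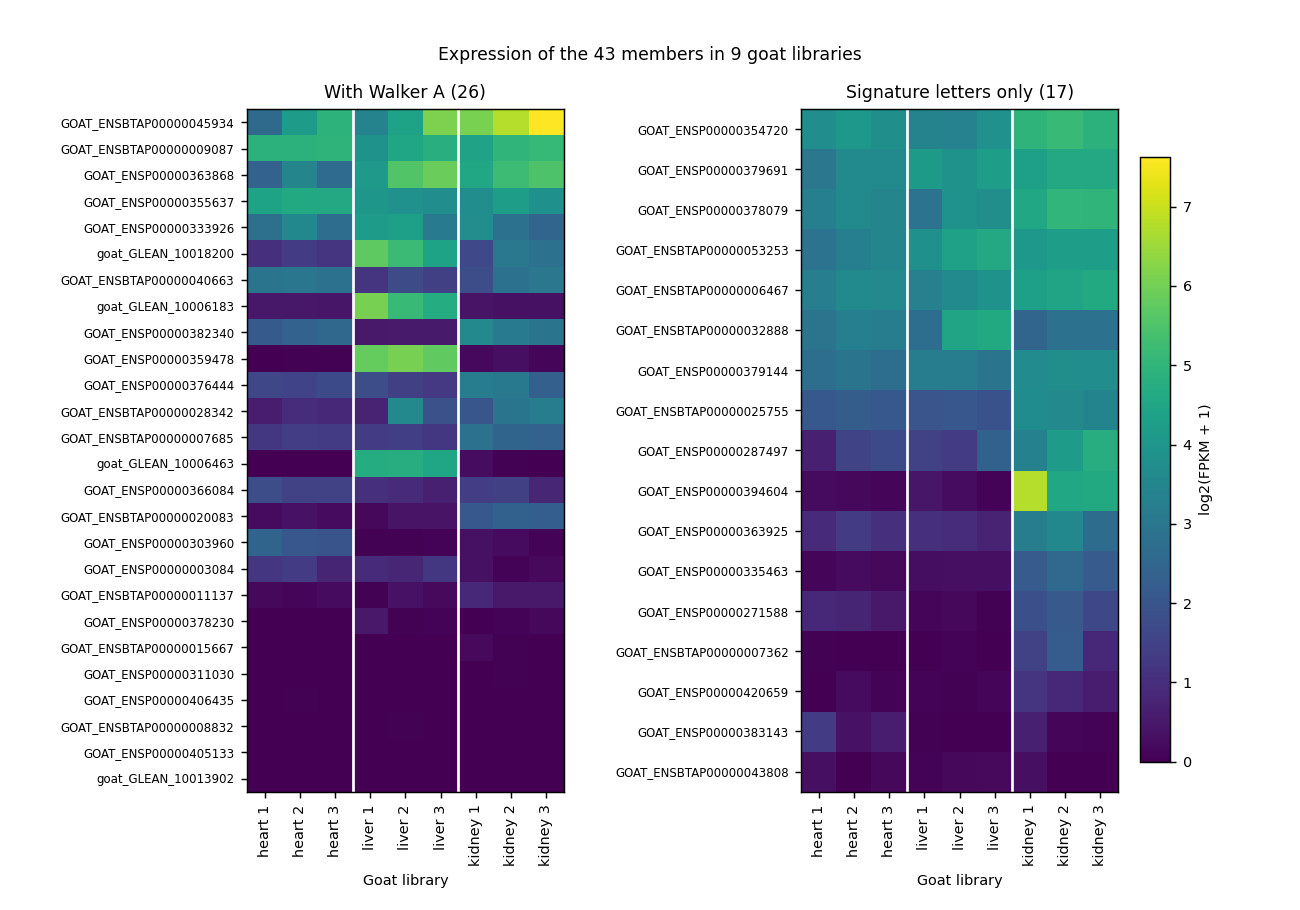
Colour gives log2(FPKM + 1) of each of the 43 members (rows) in each of the 9 goat libraries (columns), with the Walker A members on the left and the motif-only members on the right, both sorted by their mean. Several Walker A members are bright in the 3 liver libraries only, and 12 motif-only members are higher in kidney than in both other tissues.

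Tissues were compared with limma on log2(FPKM + 1) over all 13634 goat genes that exceeded 0.5 FPKM in at least 3 of the 9 libraries, and a gene is called where the adjusted p was at most 0.05. On this scale a difference understates the change of a gene with a low level. Of the 43 members, 34 could be tested: 18 Walker A and 16 motif-only. Of these 34, 21 exceeded 0.5 FPKM in all 9 libraries, whereas 9 did so in a single tissue only, 5 of them Walker A members, and for such members a difference follows from the way they entered the test. These were GOAT_ENSP00000359478, goat_GLEAN_10006183 and goat_GLEAN_10006463 through liver, GOAT_ENSP00000303960 through heart, and GOAT_ENSBTAP00000020083, GOAT_ENSP00000394604, GOAT_ENSP00000335463, GOAT_ENSBTAP00000007362 and GOAT_ENSP00000420659 through kidney. Their differences and p-values are given below as descriptions. The counts below describe the tested members and say nothing of the 9 that were not tested.

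Between heart and liver 14 members were called (background 49.2% of all tested genes), 7 higher in heart (29.6%) and 7 higher in liver (19.6%). The Walker A members contributed 5 and 5 of these and the motif-only members 2 and 2. Between heart and kidney 25 members were called (background 63.2%), 3 higher in heart and 22 higher in kidney. For the Walker A members the split was 3 and 8, and for the motif-only members 0 and 14, against backgrounds of 17.9% higher in heart and 45.3% higher in kidney. Between liver and kidney 24 members were called (background 65.0%), 6 higher in liver and 18 higher in kidney, or 5 and 6 for the Walker A members and 1 and 12 for the motif-only members, against 13.4% and 51.6% of all tested genes. Median differences over the tested Walker A members were −0.03 for heart minus liver, −0.13 for heart minus kidney and −0.25 for liver minus kidney on the log2 scale. Those of all tested genes were 0.10, −0.55 and −0.69, and those of the motif-only members −0.08, −1.14 and −1.40.

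Kidney values stood above the other tissues across the genome, so the direction of many kidney differences depends on the scaling. Median ratio scaling, in which a library is divided by the median of its genes' ratios to their geometric mean over libraries, moved the median over all tested genes from −0.55 to −0.04 for heart minus kidney and from −0.69 to −0.01 for liver minus kidney. With that scaling the Walker A members split into 6 higher in heart and 4 higher in kidney, and into 7 higher in liver and 3 higher in kidney. The background was 58.0% for heart against kidney (29.0% higher in heart and 29.1% in kidney) and 52.0% for liver against kidney (26.6% higher in liver and 25.3% in kidney). The motif-only members still had 10 calls towards kidney against 1 towards heart, and 9 towards kidney against 2 towards liver. Between heart and liver 13 members were called after scaling (background 53.8%), 8 Walker A and 5 motif-only, and 12 of the 13 were among the 14 calls on the deposited values. With the replicate number as a block, 13 Walker A and 4 motif-only members were called between heart and liver (background 56.5%), 11 and 14 between heart and kidney (69.3%) and 12 and 13 between liver and kidney (70.9%). Kidney differences below are given with median ratio scaling where it changes a call.

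A member is described as elevated in a tissue when it was called higher there than in both others. In heart 2 members were elevated (background 14.5%), in liver 4 (9.59%) and in kidney 17 (34.2%). All heart and liver members among these were Walker A members, while the kidney group held 5 Walker A and 12 motif-only members. Included are the 9 members that entered the test through a single tissue, 5 of them Walker A members, so these counts are descriptions. After median ratio scaling the numbers for Walker A members were 2, 4 and 2, and for motif-only members 0, 2 and 9, against backgrounds of 19.5%, 15.4% and 16.6%. With the replicate block they were 2, 5 and 5 for Walker A members and 0, 0 and 12 for motif-only members, against 15.8%, 10.6% and 38.5%, and the liver member added was GOAT_ENSP00000333926.

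**Figure D3:**
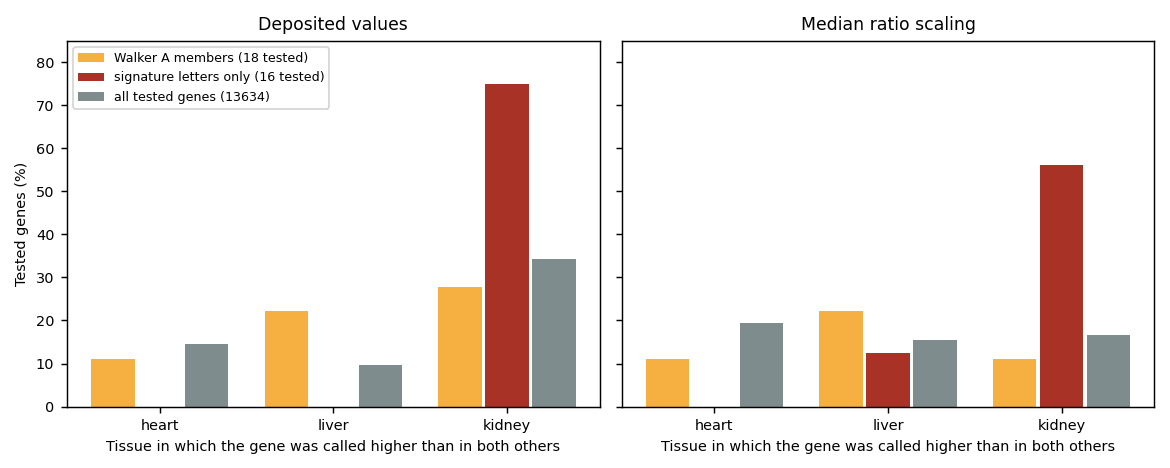
Bars give the percentage of tested genes that were called higher in the named tissue than in both others, for 18 Walker A members, 16 motif-only members and all 13634 tested genes, with the deposited values on the left and after median ratio scaling on the right. The motif-only bar in kidney is 75% on the left and 56.2% on the right, and the Walker A bar in liver is 22.2% on both sides. That liver bar counts GOAT_ENSP00000359478, goat_GLEAN_10006183 and goat_GLEAN_10006463, which entered the test through liver alone. Heart and kidney bars also count members that entered through a single tissue.

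All 4 members elevated in liver were proteins with 2 domains, and 3 of them exceeded 0.5 FPKM in liver only. GOAT_ENSP00000359478, of 1543 residues on scaffold 532, stood at 0.0149, 0.0402 and 0.0269 FPKM in heart, 55.3, 65.3 and 53.5 in liver and 0.127, 0.23 and 0.0729 in kidney. Every liver library lay above 50 FPKM and no other library reached 0.5, so the groups were far apart. Its log2 difference was −5.84 ± 0.16 (SE) for heart minus liver (adjusted p = 5.65e-09) and 5.69 ± 0.16 for liver minus kidney (adjusted p = 1.58e-08). goat_GLEAN_10006463, of 1595 residues, was listed at 0 in all heart libraries and gave 25.2, 25.7 and 21.2 in liver and 0.193, 0.0245 and 0.014 in kidney. Its liver minus kidney difference was 4.54 ± 0.15 (adjusted p = 4.68e-08), and no fold is given against heart.

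goat_GLEAN_10006183, the only member with the signature in both domains, gave 0.413, 0.41 and 0.374 FPKM in heart, 65.4, 34.3 and 25.6 in liver and 0.321, 0.275 and 0.255 in kidney. The liver libraries differed among themselves by more than the 3 of GOAT_ENSP00000359478 did, but all stood far above the rest. Differences were −4.83 ± 0.29 for heart minus liver (adjusted p = 9.2e-07) and 4.95 ± 0.29 for liver minus kidney (adjusted p = 1.05e-06). goat_GLEAN_10018200 was found in all tissues, at 1.05, 1.56 and 1.2 in heart, 51.9, 35.9 and 20.6 in liver and 2.22, 7.29 and 6.39 in kidney. Liver exceeded both tissues without overlap, with a heart minus liver difference of −3.94 and a liver minus kidney difference of 2.58 (SE 0.41, adjusted p = 3.78e-05 and 0.000489). For its heart minus kidney difference of −1.36 (adjusted p = 0.0156), median ratio scaling gave −0.86 (adjusted p = 0.126). Leaving out heart 1, kidney 2 or kidney 3 also ended that call (adjusted p = 0.0511, 0.0632 and 0.0561). All 4 proteins remained elevated in liver after median ratio scaling.

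**Figure D4:**
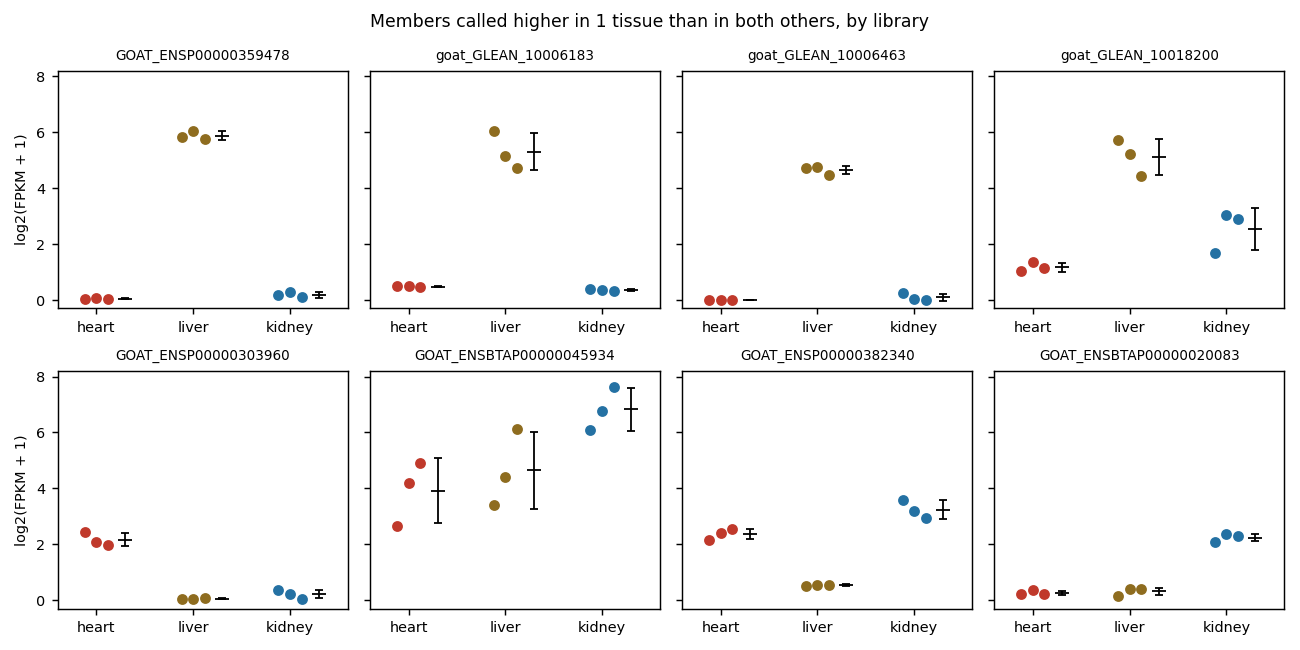
Each panel plots log2(FPKM + 1) of 1 member in the 3 libraries of heart, liver and kidney (points) with the mean and SD beside them (bars, n = 3). The upper row holds the 4 members elevated in liver, and the lower row holds 1 elevated in heart and 3 elevated in kidney, where the libraries of GOAT_ENSBTAP00000045934 spread from 66.6 to 196 FPKM within kidney.

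In heart, GOAT_ENSP00000303960 was elevated at a low level. The protein has 1598 residues, 2 domains and 15 predicted membrane segments, the most of any member. It gave 4.47, 3.24 and 2.95 FPKM in heart, 0.0403, 0.0251 and 0.0545 in liver and 0.279, 0.174 and 0.0425 in kidney, so that every heart library exceeded every other by a wide margin. The differences were 2.12 ± 0.16 over liver (adjusted p = 5.09e-06) and 1.96 ± 0.16 over kidney (adjusted p = 9.01e-06), and both held after median ratio scaling. Its closest relative, GOAT_ENSBTAP00000040663, shared 66.0% of residues over 1602 aligned positions and lies on another scaffold. That relative was broader, with 6.57, 7.01 and 6.32 in heart, 1.23, 2.4 and 1.72 in liver and 2.47, 6.16 and 7.12 in kidney. Heart exceeded liver without overlap (1.48 ± 0.31, adjusted p = 0.00356), but kidney 3 lay above all heart libraries and heart minus kidney was 0.38 ± 0.31 (adjusted p = 0.316). Liver lay below kidney, by a liver minus kidney difference of −1.10 (adjusted p = 0.0123). After median ratio scaling heart minus kidney was 0.95 (adjusted p = 0.0171), which made the protein elevated in heart, and liver minus kidney was −0.43 (adjusted p = 0.231).

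The other member elevated in heart, GOAT_ENSP00000355637, is a single-domain protein of 566 residues and was found at similar levels everywhere. Heart libraries gave 20.6, 23.8 and 23.4 FPKM, liver 15.4, 13.5 and 12.3, and kidney 12.3, 17.8 and 13.2. Heart did not overlap with either tissue, yet the differences were only 0.68 ± 0.19 over liver (adjusted p = 0.0147) and 0.63 ± 0.19 over kidney (adjusted p = 0.0172). The call against liver was lost after median ratio scaling (0.48, adjusted p = 0.0733) and without heart 2 (adjusted p = 0.0539). Against kidney it was lost without heart 2, heart 3, kidney 1 or kidney 3 (adjusted p = 0.0575, 0.0537, 0.0542 and 0.0568). Scaling all libraries to equal sums of FPKM ended both calls (0.24 over liver, adjusted p = 0.34, and 0.26 over kidney, adjusted p = 0.273). After median ratio scaling liver exceeded kidney by 0.78 (adjusted p = 0.0108), against −0.06 as deposited.

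In kidney, the highest Walker A member was GOAT_ENSBTAP00000045934, a single-domain protein of 676 residues on scaffold 493. It gave 5.25, 17.5 and 29.4 FPKM in heart, 9.52, 20.3 and 68.5 in liver and 66.6, 109 and 196 in kidney. In every tissue library 1 was the lowest and library 3 the highest, and kidney was the highest tissue within each number, although kidney 1 lay below liver 3. Kidney exceeded heart by 2.90 ± 0.76 on the log2 scale (adjusted p = 0.00814) and liver by 2.19 ± 0.76 (adjusted p = 0.0296). With the replicate number as a block the adjusted p fell to 3.96e-05 and 0.000177, and heart minus liver (−0.72) was called as well (adjusted p = 0.0444 against 0.475 without the block). The call against liver was lost after median ratio scaling (−1.31, adjusted p = 0.135) and without liver 1, liver 2, kidney 2 or kidney 3 (adjusted p = 0.106, 0.0792, 0.066 and 0.1).

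The other Walker A members elevated in kidney were proteins with 2 domains at lower levels. GOAT_ENSBTAP00000020083, of 2151 residues, gave 0.164, 0.284 and 0.173 FPKM in heart, 0.116, 0.323 and 0.315 in liver and 3.25, 4.12 and 3.88 in kidney. Kidney stood apart from both, with differences of −1.97 ± 0.15 for heart minus kidney (adjusted p = 4.42e-06) and −1.93 ± 0.15 for liver minus kidney (adjusted p = 5.32e-06). GOAT_ENSBTAP00000007685 was detected in all libraries, with 1.36, 1.61 and 1.51 in heart, 1.55, 1.65 and 1.34 in liver and 6.31, 4.5 and 4.24 in kidney (differences −1.25 and −1.24, SE 0.18, adjusted p = 0.000232 and 0.000244). These 2 were also the Walker A members elevated in kidney after median ratio scaling. With quantile normalization, the liver minus kidney difference of GOAT_ENSBTAP00000007685 was −0.49 and no longer called (adjusted p = 0.0514).

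For GOAT_ENSP00000382340 and GOAT_ENSP00000376444 the kidney call did not survive that scaling in full. GOAT_ENSP00000382340 gave 3.48, 4.26 and 4.8 FPKM in heart, 0.433, 0.475 and 0.478 in liver and 11.1, 8.08 and 6.68 in kidney. The order kidney, heart, liver was without overlap at each step, and all 3 differences were called (heart minus liver 1.82, heart minus kidney −0.88, liver minus kidney −2.69, SE 0.20, adjusted p = 6.43e-05, 0.0043 and 4.79e-06). After median ratio scaling, heart minus kidney was −0.29 (adjusted p = 0.264), while both differences from liver kept their calls. GOAT_ENSP00000376444 gave 2.05, 1.91 and 2.27 in heart, 2.48, 1.74 and 1.38 in liver and 8.25, 7.51 and 4.01 in kidney. Its differences of −1.25 from heart and −1.37 from liver (SE 0.26, adjusted p = 0.00211 and 0.00128) became −0.71 and −0.67 (adjusted p = 0.071 and 0.0912).

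Several Walker A members were shared by more than 1 tissue. GOAT_ENSP00000363868, of 2261 residues with the M form of the signature, gave 4.27, 9.98 and 5.34 FPKM in heart, 16.2, 45.8 and 58.5 in liver and 23, 36.6 and 43.9 in kidney. Heart lay below both other tissues without overlap (differences −2.34 from liver and −2.26 from kidney, SE 0.48, adjusted p = 0.00275 and 0.00252), and liver minus kidney was 0.08 ± 0.48 (adjusted p = 0.898). GOAT_ENSP00000003084 showed the reverse arrangement at a low level, with 1.31, 1.54 and 0.732 in heart, 0.935, 0.748 and 1.36 in liver and 0.255, 0.0551 and 0.142 in kidney. Kidney was below both tissues in every library, by 0.92 and 0.80 on the log2 scale (SE 0.19, adjusted p = 0.00229 and 0.00484), and these calls held after median ratio scaling.

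GOAT_ENSBTAP00000028342, one of the proteins with the domain ahead of the membrane segments, varied widely between animals in liver. It gave 0.522, 0.944 and 0.783 FPKM in heart, 0.656, 11.1 and 2.71 in liver and 3.11, 6.79 and 8.22 in kidney. Kidney exceeded heart (difference −1.94 ± 0.62, adjusted p = 0.0205), a call lost after median ratio scaling (−1.44, adjusted p = 0.0803), whereas liver 2 was the highest library of all and liver 1 fell within the heart range. With the replicate block heart minus liver was called too (adjusted p = 0.0417 against 0.117 without it). The call against kidney was lost without heart 1, kidney 2 or kidney 3 (adjusted p = 0.0635, 0.0615 and 0.0681). Without liver 1 heart minus liver was called (−1.94, adjusted p = 0.0128), and without liver 2 liver minus kidney was called (−1.43, adjusted p = 0.02).

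GOAT_ENSP00000366084 was called only between heart (2.5, 1.83 and 1.79) and liver (1.09, 0.863 and 0.606), by 0.71 ± 0.21 (adjusted p = 0.0183), and after median ratio scaling by 0.64 (adjusted p = 0.0561). That call was lost without heart 1 or liver 3 (adjusted p = 0.0617 and 0.0624). Its kidney libraries, at 1.62, 1.73 and 0.772, overlapped with liver. After median ratio scaling heart exceeded kidney by 0.77 (adjusted p = 0.0255), and without kidney 3 liver minus kidney was called (−0.54, adjusted p = 0.039).

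Only 2 of the 34 tested members, both with Walker A, were called in none of the comparisons (background 13.7%). The soluble protein GOAT_ENSBTAP00000009087 gave 28.6, 28.7 and 30.3 FPKM in heart, 14.2, 21.9 and 27 in liver and 20.2, 30.4 and 33.7 in kidney. Heart and kidney overlapped, and library 1 was the lowest in liver and kidney. Heart minus kidney was 0.09 ± 0.27 (adjusted p = 0.802), but 0.75 after median ratio scaling (adjusted p = 0.0084), so an equal level in both is tied to the deposited scale. GOAT_ENSP00000333926 gave 5.97, 10.7 and 5.6 in heart, 17.7, 18.7 and 7.62 in liver and 12.2, 6.38 and 4.63 in kidney. Liver exceeded heart and kidney within each number, and with the replicate block both differences were called (−0.85 and 0.85, adjusted p = 0.0402 and 0.0336, against 0.119 and 0.101 without it). Without liver 3 both calls were also made (adjusted p = 0.0297 and 0.0221). Liver minus kidney was called without kidney 1 (adjusted p = 0.0323) and after median ratio scaling (1.65, adjusted p = 0.0187).

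The remaining 8 Walker A members were not tested, with a highest value of 0.828 FPKM in any library. GOAT_ENSBTAP00000011137 reached that value in kidney, where it gave 0.828, 0.449 and 0.423, and stayed below 0.3 in heart and liver. GOAT_ENSP00000378230 gave 0.443 in liver 1 and at most 0.111 elsewhere, and GOAT_ENSBTAP00000015667 gave 0.154 in kidney 1 and was listed at 0 in heart and liver. GOAT_ENSP00000311030, GOAT_ENSP00000405133, GOAT_ENSP00000406435 and GOAT_ENSBTAP00000008832 stayed below 0.03 in every library, and goat_GLEAN_10013902 was listed at 0 in all 9.

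Relatives by sequence included members with different tissue patterns. One group was formed by 10 members and 2 proteins outside the rule, 12 relatives in all, with identities of 28.8% to 76.4% between pairs. This group held GOAT_ENSP00000359478 and goat_GLEAN_10006463 of liver, GOAT_ENSP00000303960 of heart, and GOAT_ENSP00000382340 and GOAT_ENSBTAP00000007685 of kidney. GOAT_ENSP00000359478 and GOAT_ENSP00000382340 shared 47.7% of residues over 1563 positions, and the former was the highest Walker A member in liver by mean while the latter had its lowest level there. In the group of long proteins, GOAT_ENSBTAP00000020083 was elevated in kidney, GOAT_ENSP00000363868 (49.2% identical to it over 2308 positions) was high in liver and kidney, and GOAT_ENSP00000405133 stayed below 0.03 FPKM. Of the proteins with the domain first, GOAT_ENSBTAP00000028342 reached 11.1 FPKM and its relative GOAT_ENSBTAP00000015667, 70.9% identical over 626 positions, only 0.154. Whether reads of such relatives were split between them in the quantification was not tested.

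Some members lie next to each other in the genome. Coordinates are those of the headers of the protein file, which give scaffold numbers and name no assembly. goat_GLEAN_10006463 (scaffold 866, 610356 to 675084, plus strand) and GOAT_ENSP00000382340 (scaffold 866, 681987 to 786909, minus strand) are 6902 bases apart and point towards each other. They had opposite patterns: the former was found in liver at 21.2 to 25.7 FPKM and near 0 elsewhere, and the latter was lowest in liver at 0.433 to 0.478. On scaffold 537, GOAT_ENSP00000376444 (4431921 to 4478700) and goat_GLEAN_10018200 (4492303 to 4542203) are 13602 bases apart on the plus strand and share 35.5% of residues over 1015 positions. The former was highest in kidney and the latter in liver. A gap of 38845 bases separates GOAT_ENSP00000311030 and GOAT_ENSP00000378230 on scaffold 512, and one of 2446 bases separates goat_GLEAN_10013902 and GOAT_ENSBTAP00000008832 on scaffold 438. All of these 4 stayed below 0.5 FPKM in every library.

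**Figure D5:**
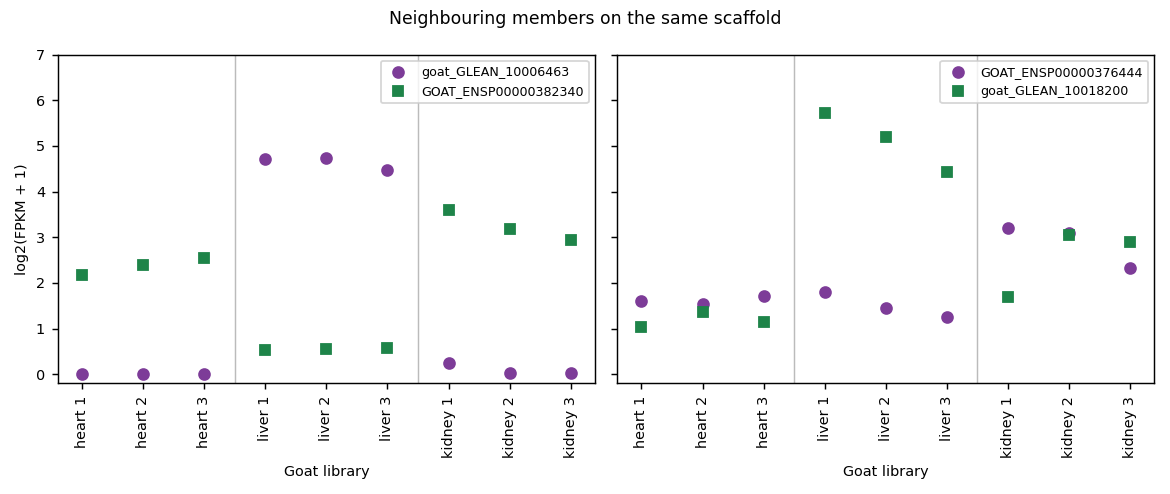
Points give log2(FPKM + 1) in each of the 9 goat libraries for 2 pairs of members on the same scaffold, 6902 bases (left) and 13602 bases (right) apart. In the left panel the circles are high in liver only and the squares lowest in liver, and in the right panel the squares are high in liver and the circles highest in kidney.

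Of the 16 motif-only members tested, 12 were called higher in kidney than in both other tissues (34.2% of all tested genes). After median ratio scaling 9 were (16.6%). These counts include members that entered the test through kidney alone, GOAT_ENSP00000394604 among them. GOAT_ENSP00000394604, of 1175 residues, gave 0.163, 0.11 and 0.0913 FPKM in heart, 0.376, 0.185 and 0.0505 in liver and 108, 22.1 and 23.9 in kidney. Kidney 1 stood well above the other kidney libraries, and all of them stood far above the rest (difference −5.14 ± 0.51 for heart minus kidney, adjusted p = 2.52e-05, and −5.05 ± 0.51 for liver minus kidney, adjusted p = 2.96e-05). GOAT_ENSP00000287497 lies 63413 bases away on scaffold 6 and gave 0.579, 1.93 and 2.3 in heart, 1.86, 1.54 and 4.11 in liver and 9.25, 17.5 and 25.8 in kidney. Kidney was again highest without overlap (−2.79 and −2.36, SE 0.42, adjusted p = 0.000384 and 0.00104). These proteins were not aligned with each other, since motif-only members were left out of the alignments.

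Other motif-only members were less extreme. GOAT_ENSP00000335463 gave 0.106, 0.157 and 0.117 FPKM in heart, 0.212, 0.254 and 0.244 in liver and 3.6, 5.04 and 3.58 in kidney, with differences of −2.16 and −2.02 from kidney (SE 0.15, adjusted p = 2.99e-06 and 4.74e-06). GOAT_ENSBTAP00000025755 gave 3.25, 3.71 and 3.28 in heart, 3.05, 3.22 and 2.75 in liver and 12.1, 11.1 and 9.78 in kidney (−1.44 and −1.58, SE 0.16, adjusted p = 6.07e-05 and 3.48e-05). In both, the kidney libraries lay above all others and the calls held after median ratio scaling, but GOAT_ENSP00000335463 entered the test through kidney alone. GOAT_ENSBTAP00000007362 was near 0 in heart and liver, at most 0.0482, and gave 1.86, 3.69 and 0.845 in kidney, and it too entered the test through kidney alone. The same holds for GOAT_ENSP00000420659, with 1.24, 0.838 and 0.507 in kidney and at most 0.158 elsewhere.

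Of the motif-only members with the SMC-like spacing, GOAT_ENSP00000354720 was found everywhere, with 12.2, 15.9 and 12.9 FPKM in heart, 9.71, 9.32 and 13.4 in liver and 29.9, 34.7 and 28.6 in kidney. The differences from kidney were −1.13 ± 0.20 for heart (adjusted p = 0.000877) and −1.45 ± 0.20 for liver (adjusted p = 0.000198), and less after median ratio scaling (−0.48 and −0.60, adjusted p = 0.0217 and 0.00854). GOAT_ENSP00000363925 was lower, with 0.864, 1.48 and 1.08 in heart, 1.09, 0.951 and 0.694 in liver and 8.1, 10.8 and 5.42 in kidney (−2.06 and −2.21, SE 0.24, adjusted p = 7.32e-05 and 4.73e-05). Both were highest in kidney in every library.

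For 3 motif-only members the kidney elevation was lost after median ratio scaling. GOAT_ENSBTAP00000006467 gave 8.62, 11.4 and 11.1 FPKM in heart, 9.01, 11.3 and 13.9 in liver and 18.8, 21.1 and 23.6 in kidney, and its differences of −0.97 and −0.85 (adjusted p = 0.00278 and 0.00545) became −0.32 and −0.01 (adjusted p = 0.0602 and 0.982). GOAT_ENSP00000378079, at 8.74 to 11.4 in heart, 6.49 to 13.9 in liver and 22.8 to 31.6 in kidney, kept its call against heart and lost that against liver (−0.50, adjusted p = 0.0757). GOAT_ENSP00000379144, at 5.73 to 6.58, 6.68 to 8.16 and 11.7 to 12.5, lost both (−0.30 and 0.20, adjusted p = 0.219 and 0.411). GOAT_ENSP00000271588, the longest member with 5555 residues, kept its calls and was ordered kidney (2.13 to 3.34), heart (0.449 to 0.801) and liver (0.025 to 0.116) without overlap. It exceeded 0.5 FPKM in 5 libraries, those of kidney and heart 1 and 2, so it passed the filter only with kidney. Its differences from kidney are therefore descriptions as well.

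The motif-only members not elevated in kidney were GOAT_ENSBTAP00000053253, GOAT_ENSP00000379691, GOAT_ENSBTAP00000032888, GOAT_ENSP00000383143 and the untested GOAT_ENSBTAP00000043808. GOAT_ENSBTAP00000032888, which has 9 predicted membrane segments, gave 6.64, 8.79 and 8.46 FPKM in heart, 5.76, 21 and 23.8 in liver and 4.6, 6.16 and 6.28 in kidney. Liver 2 and 3 exceeded every other library and liver 1 did not, with a liver minus kidney difference of 1.22 ± 0.43 (adjusted p = 0.0326). This call was lost without any one of liver 2, liver 3 and the 3 kidney libraries (adjusted p from 0.0585 to 0.115). Heart minus liver (−0.79, adjusted p = 0.161) was called without liver 1 (−1.39, adjusted p = 0.000733). After median ratio scaling the protein was elevated in liver (adjusted p = 0.045 against heart and 0.00172 against kidney), and heart minus kidney went from 0.43 (adjusted p = 0.417) to 1.01 (adjusted p = 0.0409). GOAT_ENSBTAP00000053253 was lower in heart (6.43, 8.78 and 9.97) than in liver (13.2, 19.7 and 23.5) and kidney (15.7, 18 and 18.4), without overlap (−1.06 and −0.98, SE 0.24, adjusted p = 0.00539 and 0.00594). The call against kidney was lost after median ratio scaling (−0.35, adjusted p = 0.0829), and liver was then called above kidney (0.93, adjusted p = 0.00106). GOAT_ENSP00000379691 was lower in heart (7.08, 11.4 and 11.6) than in liver (16.7, 13.7 and 18) and kidney (18.6, 23.3 and 23.5), by differences of −0.66 and −1.07 (SE 0.22, adjusted p = 0.0346 and 0.00241). The former was lost without heart 1, liver 1, liver 3 or kidney 2 (adjusted p from 0.0522 to 0.111), and the latter after median ratio scaling (−0.43, adjusted p = 0.0621).

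GOAT_ENSP00000383143 gave 1.5, 0.292 and 0.515 FPKM in heart, 0.0263, 0 and 0 in liver and 0.577, 0.0753 and 0.0576 in kidney. Heart 1 was the highest library and heart overlapped with kidney, and only heart minus liver was called (0.75 ± 0.25, adjusted p = 0.0333). It was lost without heart 1 or any liver library (adjusted p from 0.063 to 0.0881). Heart minus kidney (0.48, adjusted p = 0.123) was called without heart 2 or kidney 1 (adjusted p = 0.0488 and 0.0451). The untested GOAT_ENSBTAP00000043808 stayed at or below 0.244 FPKM in every library.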

How the data were processed

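Goat libraries were strand-specific (dUTP) per the labels. According to the study's methods, reads were mapped with TopHat to the goat genome and quantified with Cufflinks (version 2.2.1 in the submitters' processing notes). The notes list the cattle build UMD3.1 for every sample, whereas the methods name a goat assembly. The authors deposited log2(FPKM + 1) per gene and library, and FPKM was recovered from these log2 values. Goat heart columns differ from the names in the sample descriptions, and were assigned through the tissue, number and animal prefix they share with the titles. The study used these heart libraries in more than 1 deposit, so a batch difference between heart and the other tissues cannot be told apart from tissue. The deposited protein file ends within an entry.

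Members were found by motif search in the proteins. The domain profile was built with MAFFT 7.526 and HMMER 3.4 (proteins matched at E of 1e-10, domains at 1e-05), identities are from BLAST+ 2.17.0, and membrane segments are windows of 19 residues with a mean hydropathy of at least 1.6. The profile was built from the Walker A members, so their own match to it is no independent check.

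Tissues were compared with limma 3.58.1 (R 4.3.3), a mean per tissue over 9 libraries, eBayes with a trend, 2-sided, and Benjamini-Hochberg adjustment over all tested genes in each contrast at 0.05. The fit was run on simulated data with independent errors per library. Such data cannot show how the fit behaves where same-numbered libraries deviate together. The study's methods describe unrelated animals, each sampled for all tissues, so the tissues are paired by animal under that design. Which libraries share an animal is not stated there. The p-values measure the spread between these libraries. Same-numbered libraries deviated together from their tissue means: r was 0.146 to 0.472 in 9 pairs, against −0.417 to 0.134 in 18 pairs of other numbers. The lowest same-number value (liver 2 with kidney 2) was close to the highest of the others (heart 3 with kidney 2). The numbers were therefore treated as a pairing in the replicate block only. The main fit has no block, so its p-values ignore the pairing by animal that the methods describe.

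Members and lists were chosen with earlier results of these data known. Genes named were, per tissue, up to 8 elevated members by their smaller difference, the 5 highest members and up to 4 members called nowhere. Other members named were chosen after their values were seen. The reference table of cattle genes matched no goat identifier, so lists by gene name (roles, partner genes, tissue and cell type markers) were not analysed here. Alternatives were pseudocount, filter, scaling, minimum fold, trend, replicate block, left-out libraries and the member rule.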

Additional observations from a re-analysis of the deposited data

How the results depend on the processing

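The study's filter (above 0.5 FPKM in over 80% of the 9 libraries), which removes genes of a single tissue by construction, left 7 members called between heart and liver, 16 between heart and kidney and 13 between liver and kidney, with 1, 1 and 10 elevated in heart, liver and kidney, against 47.7%, 63.3% and 63.5% of all genes called and 12.8%, 6.15% and 34.4% elevated. A minimum log2 difference of 1 left 9 calls between heart and liver and 1 member elevated in heart, against 35.3% and 10.6% of all tested genes. Quantile normalization gave 5 members elevated in heart (19.7% of all tested genes, against 14.5% as deposited), and equal sums gave 1 (10.9%). Median ratio scaling gave 11 elevated in kidney (16.6% of all tested genes). With Walker A members only (18 tested), 11 were called between heart and kidney (63.2% of all tested genes) and 11 between liver and kidney (65.0%). Of these 18, 5 were elevated in kidney (34.2%). Among all 26 Walker A members, 14, 15 and 14 exceeded 0.5 FPKM in heart, liver and kidney, and the shares of FPKM were 0.0131%, 0.0499% and 0.0409%. The 17 domain proteins outside the rule, 13 of them tested, were chosen after seeing the data. Adding them to the 34 tested members gave 22 calls between heart and liver (49.2% of all tested genes) and 10 elevated in liver (9.59%). The shares of FPKM were then 0.0301%, 0.102% and 0.0915%. The liver minus kidney difference of GOAT_ENSP00000355637, −0.06 as deposited, turned to 0.78 with median ratio scaling and 0.59 with quantile normalization, and that of GOAT_ENSP00000379144, −0.62 as deposited, to 0.20 and 0.09.

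Leaving out 1 library at a time gave 11 to 14 calls between heart and liver, 22 to 25 between heart and kidney and 22 to 24 between liver and kidney. Members elevated in heart were 1 to 2 (1 without heart 3 or kidney 3), in liver 4 to 5 and in kidney 16 to 17. Shares over all tested genes were not computed for the left-out fits, so these counts have no background beside them. Members above 0.5 FPKM were 25 to 26, 25 to 25 and 28 to 29, and shares 0.021 to 0.024%, 0.0653 to 0.0691% and 0.0713 to 0.0836% in heart, liver and kidney.

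With the replicate block 17 members were called in heart against liver, 25 in heart against kidney and 25 in liver against kidney, and all 14, 25 and 24 calls made without it were kept. Of the 102 differences of the 34 tested members, the block added 4 calls, which are given above with its p-values, and changed no other call. Over 1797 alternative values of these differences, 1688 kept their direction and their side of the threshold, 74 lost the call, 31 gained it and 4 reversed. For changes with the scaling or the left-out library the cause was not tested.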

Other observations

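A further 17 goat proteins matched the nucleotide-binding domain profile without the signature letters LSGGQ or LSGGM, so the rule left them out (weakest E = 1.3e-14, and the next protein after them 7.4e-07). Walker A was found in 16 of them, and they were 491 to 2271 residues long. They were chosen after the data were seen. Of the 13 that could be tested, 6 were elevated in liver, 2 in kidney and 0 in heart, against 4, 5 and 2 of the 18 tested Walker A members and 9.59%, 34.2% and 14.5% of all tested genes. Of the elevated proteins, GOAT_ENSBTAP00000021768 and GOAT_ENSBTAP00000043977 entered the test through liver alone. GOAT_ENSBTAP00000021770 exceeded 0.5 FPKM in 4 libraries, those of liver and heart 2, so it too passed the filter only with liver. GOAT_ENSBTAP00000046814 and GOAT_ENSP00000420527 entered it through kidney alone. For these a difference follows from the way they entered, and the counts are descriptions. The FPKM of all 17 proteins summed to 58.1, 67.3 and 68.9 in heart, 207, 200 and 226 in liver and 60.9, 83.8 and 96.1 in kidney, so liver stood above both tissues without overlap.

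GOAT_ENSBTAP00000021768 and GOAT_ENSBTAP00000021770 carry the domain ahead of the membrane segments, lie 357 bases apart on scaffold 135 and point away from each other. In liver the former gave 4.84, 6.01 and 9.95 FPKM and the latter 19.2, 21.5 and 57, with liver 3 the highest in both. No heart or kidney library exceeded 0.116 for the former or 0.859 for the latter. GOAT_ENSBTAP00000043977, 50.2% identical over 1143 positions to the liver member goat_GLEAN_10006183, gave 71.1, 39.9 and 16.5 in liver and at most 0.216 elsewhere. In GOAT_ENSBTAP00000043977 and goat_GLEAN_10006183 liver 1 was the highest and liver 3 the lowest library. GOAT_ENSP00000403357 was present in all tissues, with 15.8, 13.6 and 13 in heart, 47.6, 49.5 and 50.7 in liver and 17.6, 13.8 and 15.2 in kidney, and liver exceeded heart by 1.74 on the log2 scale (SE 0.17, adjusted p = 2.33e-05).

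On scaffold 537 the members GOAT_ENSP00000376444 and goat_GLEAN_10018200 are followed on the same strand by goat_GLEAN_10018201, 8021 bases on, and GOAT_ENSBTAP00000009063, a further 11621 bases on. The latter pair shares 53.1% and 49.8% of residues with goat_GLEAN_10018200. goat_GLEAN_10018201 gave 3.35, 4.21 and 3.43 FPKM in heart, 13.1, 29.1 and 28.4 in liver and 2.19, 12 and 15.8 in kidney. GOAT_ENSBTAP00000009063 gave 2.15, 3.38 and 3.83, 1.87, 0.616 and 0.965, and 1.69, 3.79 and 2.46. By mean, the order of tissues was liver, kidney, heart for both goat_GLEAN_10018200 and goat_GLEAN_10018201, kidney, heart, liver for GOAT_ENSP00000376444, and heart, kidney, liver for GOAT_ENSBTAP00000009063.

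The model with a copy suffix of GOAT_ENSP00000287497 also held the signature letters, in a protein of 1139 residues. It gave 0.315, 0.304 and 0.221 FPKM in heart, 0.505, 0.375 and 0.678 in liver and 11.9, 8.91 and 17.5 in kidney, and lies between GOAT_ENSP00000394604 and GOAT_ENSP00000287497 on scaffold 6. All 3 were highest in kidney in every library. Whether reads of these neighbours were shared in the quantification was not tested.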
